A study of Mus musculus with 15 samples.

Results

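The 7 globin genes described here encode the chains of mouse haemoglobin: the alpha-like genes Hba-x, Hba-a1 and Hba-a2 and the beta-like genes Hbb-y, Hbb-bh1, Hbb-bs and Hbb-bt. They were chosen by name from the 54232 genes of the deposited count table, and all 7 were among the 22151 genes that passed the filter on low counts. The libraries were bulk RNA sequencing of the secondary palate, the tissue that divides the mouth from the nasal cavity, from mice labelled WT. Of 15 libraries, 3 came from each of 5 stages: P0 (newborn mice) and the embryonic days 13.5, 14.5, 15.5 and 16.5, written E13.5 and so on. Each library pooled the palates of 3 embryos. No strain, treatment or other allele is given, and the numbers that distinguish the libraries of a stage are not said to mark a litter or a day, so p-values measure the spread between these pools.

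Haemoglobin carries oxygen in red cells as a tetramer of alpha-like and beta-like chains. In the mouse embryo a first, primitive wave of red cells from the yolk sac makes Hba-x (zeta globin), Hbb-bh1 (beta-h1) and Hbb-y (epsilon-y) beside the adult alpha chains, and definitive red cells from the fetal liver, which make the adult chains, then take over the circulation. The succession of chains is called haemoglobin switching, and in both clusters the embryonic genes lie upstream of the adult ones. Globin RNA in a dissected tissue is usually that of red cells in its vessels, and fewer cells of a type and less RNA per cell cannot be told apart in bulk samples.

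The alpha-like genes lie on chromosome 11 of GRCm38, on the plus strand, with Hba-x at chr11:32276400-32278116, Hba-a1 at chr11:32283511-32284465 and Hba-a2 at chr11:32296489-32297298. The beta-like genes lie on chromosome 7, on the minus strand, and in the order of transcription they are Hbb-y at chr7:103851749-103853216, Hbb-bh1 at chr7:103841637-103843164, Hbb-bs at chr7:103826534-103828096 and Hbb-bt at chr7:103812524-103813996. These positions are those of the count table and were identical in the GENCODE M21 annotation of that build.

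The adult copies are nearly the same gene, and this bears on every adult value below. The coding sequences of Hba-a1 and Hba-a2 were identical at 428 of 429 bases, and those of Hbb-bs and Hbb-bt at 443 of 444. The stretches of 60 coding bases that hold the single differing base are shown for that reason, from the GENCODE M21 transcripts, with that base in capitals. Positions count from 1 at the first base of the start codon, and the differences are C417T from Hbb-bs to Hbb-bt and C381T from Hba-a1 to Hba-a2.
Hbb-bs: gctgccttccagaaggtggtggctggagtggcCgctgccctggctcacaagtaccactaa
Hbb-bt: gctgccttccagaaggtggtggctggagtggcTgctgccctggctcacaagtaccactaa
Hba-a1: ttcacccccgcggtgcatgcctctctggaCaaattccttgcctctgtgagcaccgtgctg
Hba-a2: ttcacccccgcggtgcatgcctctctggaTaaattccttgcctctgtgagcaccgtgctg

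By contrast Hbb-y was identical to Hbb-bs at 74.3% of coding bases and to Hbb-bh1 at 76.4%, and Hba-x to Hba-a1 at 62.0%. Fragments that map to several places were not counted, so a fragment from an adult gene entered the table only where it covered a base that tells the copies apart. Of all windows of 100 bases along the transcript, 43.5% of those of Hba-a1, 25.5% of Hba-a2, 37.4% of Hbb-bs and 45.2% of Hbb-bt occurred in no other gene's transcripts. All windows of Hba-x, Hbb-y and Hbb-bh1 were unique. The deposited counts therefore understate the adult genes against the embryonic genes by a factor that is the same in every library for a given fragment length, and levels of embryonic and adult genes are compared below both as counted and per unique window.

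The promoters are shown because the embryonic genes moved together and the adult genes did not follow them. RefSeq promoter entries (GRCm38.p6) were held for 6 of the 7 genes. The 250 bases before the RefSeq start were searched on both strands for 4 short motifs known from globin promoters. CACCC is bound by Klf1 and related factors and GATAA by GATA factors. The third was the CCAAT box and the fourth was TATAA, the core of a TATA box. One embryonic and one adult beta-like promoter and one adult alpha-like promoter follow, 5′ to 3′ in the direction of transcription and ending at the base before the RefSeq start, with matches in capitals.
Hbb-y, chr7:103853208-103853357, minus strand: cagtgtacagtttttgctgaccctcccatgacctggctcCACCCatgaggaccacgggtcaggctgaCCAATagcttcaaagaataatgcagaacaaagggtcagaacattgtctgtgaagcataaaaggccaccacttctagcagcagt
Hbb-bs, chr7:103827929-103828028, minus strand: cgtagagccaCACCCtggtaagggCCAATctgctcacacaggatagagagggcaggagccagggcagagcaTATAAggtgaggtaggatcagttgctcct
Hba-a2, chr11:32296342-32296491, plus strand: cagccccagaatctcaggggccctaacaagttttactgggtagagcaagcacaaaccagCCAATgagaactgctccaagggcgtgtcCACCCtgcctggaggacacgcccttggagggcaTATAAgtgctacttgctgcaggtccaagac

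A CACCC match was found in 6 of 6 globin promoters and in 52.0% of 32851 RefSeq promoters, and a GATAA match in 6 of 6 against 22.6%. A CCAAT match was found in 5 of 6 (all but Hba-x) against 33.8%, and a TATAA match in 5 of 6 (all but Hbb-y) against 22.8%. Matches were exact, so a variant such as cataaaagg in the Hbb-y stretch was not counted. The lack of a match does not show the lack of a box. Counted from the start, the first base of the CACCC lay at -111 and that of the CCAAT at -83 in Hbb-y. In Hbb-bs they lay at -90 and -76. The GATAA matches of these genes lay upstream of the stretches shown. RefSeq starts differ from the gene ends in the count table. The whole Hbb-bs stretch lies inside the gene as counted, which reaches to chr7:103828096. The Hbb-y and Hba-a2 stretches reach into their counted genes only at the bases nearest the start. The Hba-a1 promoter was identical to that of Hba-a2 at 147 of 147 bases when shifted by 3 bases, while the Hbb-bs and Hbb-bt promoters were identical at 71.1% of 149 bases. These matches describe letters in the windows and are not evidence of binding.

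The 15 libraries held 21.5 to 69.0 M counts, and 3 counts, used as the detection floor, correspond to 0.0435 to 0.140 CPM (counts scaled to the same total in each library). Intervals and floors cover counting error only. Levels below are CPM with TMM scaling (trimmed mean of M values). Changes are log2 fold changes with standard errors (SE) from edgeR's quasi-likelihood F test, with p-values adjusted by Benjamini-Hochberg over the 22151 tested genes and called under 0.05. The comparisons against E13.5 all use the same 3 E13.5 libraries.

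The 3 embryonic genes were the members called as changed over the stages. Hbb-y, Hbb-bh1 and Hba-x fell at E15.5 and were near the detection floor at P0, whereas none of the 4 adult genes passed the test in any comparison. In the F test over all stages 3 of 7 members were called, against 59.1% of all genes. Of the adult genes Hbb-bs was nearest to a call there (edgeR adjusted p = 0.0723). Over all stages it was called by DESeq2 (adjusted p = 0.0159) and by edgeR without E13.5 replicate 1 (adjusted p = 0.0389) or replicate 3 (adjusted p = 0.00605). Leaving out other libraries gave adjusted p up to 0.172 for Hbb-bs. Against E13.5, 3 of 7 were called at E15.5, all lower, where 9.18% of tested genes were called lower, 13.7% higher and 22.9% in either direction. The same 3 were called lower at E16.5, where 23% of genes were (25.2% higher, 48.2% in either direction), and at P0, where 26.8% were (29.8% higher, 56.6% in either direction). Their libraries did not overlap with those of E13.5 at any later stage, as was so for 49% of tested genes at E15.5, for 59.8% with E16.5 and for 59.1% at P0. In E15.5 against E14.5 they were again the 3 called, with 13.4% of genes called lower, 12.7% higher and 26.1% in either direction.

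Hbb-y, the embryonic epsilon-y chain, was measured at 886, 1742 and 3161 CPM in the 3 libraries of E13.5 and at 355, 459 and 658 CPM at E14.5. It dropped to 9.15, 8.12 and 4.37 CPM in the E15.5 libraries, and measured 1.68, 2.71 and 0.391 CPM in those of E16.5 and 0.444, 0.915 and 0.435 CPM in those of P0. From E13.5 to E16.5 every library lay below every library of the stage before, while E16.5 and P0 overlapped. The change from E14.5 to E15.5 was -6.09 (SE 0.68, edgeR adjusted p = 2.84e-04), and that from E13.5 to P0 was -11.63 (SE 0.87, edgeR adjusted p = 2.76e-06). Pooled over libraries, 398333 counts at E13.5 faced 56 at P0, a ratio in CPM of 3139 with an exact 95% counting interval of 2417 to 4155.

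Hbb-bh1, the beta-h1 chain of the earliest primitive red cells, was already low at E13.5. The libraries of E13.5 measured 21.8, 34.4 and 50.02 CPM, those of E14.5 6.40, 5.09 and 9.02 CPM, and those of E15.5 0.371, 0.417 and 0.260 CPM. At E16.5 its 3 libraries held 4, 5 and 4 counts, and at P0 they held 1, 0 and 0. No stage overlapped with the one before it, although the last 2 stages were at the detection floor. Per kilobase of exon, which can be compared between these 2 fully unique genes, Hbb-y was at 3049 ± 1815 CPM (SD, n = 3) and Hbb-bh1 at 57.7 ± 23.1 CPM (SD, n = 3) at E13.5. The change of Hbb-bh1 from E14.5 to E15.5 was -4.28 (SE 0.40, edgeR adjusted p = 1.42e-04).

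Hba-x, the embryonic zeta chain, was at 127, 201 and 316 CPM at E13.5 and at 45.4, 54.1 and 76.5 CPM at E14.5. It was at 2.88, 3.58 and 1.45 CPM at E15.5 and at 0.324, 0.443 and 0.343 CPM at E16.5, and at P0 the libraries held 0, 6 and 0 counts. Each stage lay wholly below the stage before it. The change from E14.5 to E15.5 was -4.48 (SE 0.49, edgeR adjusted p = 2.77e-04). Between E13.5 and P0 the pooled ratio in CPM was 3266, with an exact 95% counting interval of 1500 to 8900 that reflects the 6 counts at P0. For Hbb-bh1 the same ratio was 3233 with an interval of 580 to 127725, resting on 1 count at P0. The pooled ratios of the 3 embryonic genes were thus close to each other, but the counts at P0 could not rank them. The interval of Hbb-bh1 was too wide to tell whether its fall was of the same order.

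The embryonic decline was not called between the first 2 stages. In E14.5 against E13.5 no member was called, and 2 genes in all were (0.00903% of those tested). The log2 fold changes were -2.37 for Hbb-bh1 (SE 0.35, edgeR adjusted p = 0.0587), -1.98 for Hbb-y (SE 0.56, adjusted p = 0.159) and -1.87 for Hba-x (SE 0.44, adjusted p = 0.115). Unadjusted p was under 0.05 for 5 of the 7 members, and for 3538 genes. The libraries of the 2 stages did not overlap for 3 members, the embryonic genes, as for 29.2% of all tested genes. DESeq2 called all 3 embryonic genes in this comparison and 1000 genes in all, and Hbb-bh1 was also called by edgeR with no filter on low counts (adjusted p = 0.0480), without E14.5 replicate 3 (adjusted p = 0.0456) and without P0 replicate 3 (adjusted p = 0.0409).

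**Figure D1:**
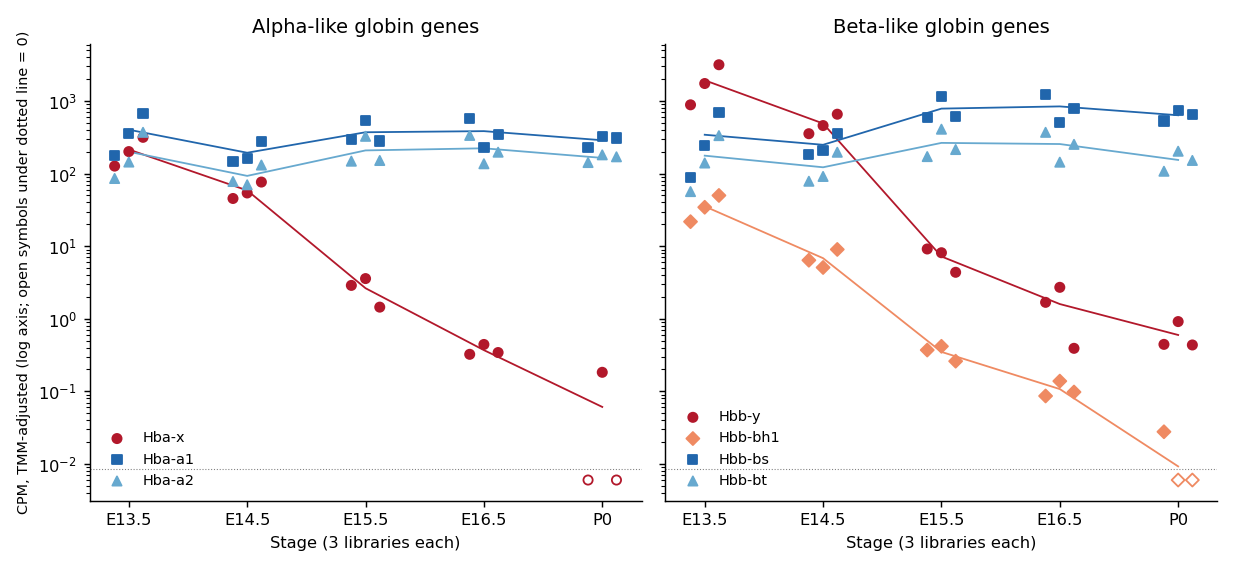
TMM-adjusted CPM on a log axis (y) of the 3 alpha-like (left) and 4 beta-like (right) globin genes by stage (x). Each point is a library, lines join stage means, and open symbols under the dotted line are libraries with 0 counts. The embryonic genes Hba-x, Hbb-y and Hbb-bh1 (reds) descend at each stage, with the longest step between E14.5 and E15.5, and the adult genes (blues) show no such descent.

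The adult genes were present from the first stage and differed between libraries of a stage as much as between stages. Hbb-bs, the major adult beta copy in these counts, was at 88.9, 247 and 694 CPM at E13.5 and at 183, 206 and 359 CPM at E14.5. It then measured 594, 1158 and 606 CPM (E15.5), 1228, 507 and 794 CPM (E16.5) and 529, 736 and 645 CPM (P0). Every E15.5 library lay above every E14.5 library, but E13.5 overlapped with each later stage. The change from E14.5 to E15.5 was 1.66 (SE 0.59, edgeR adjusted p = 0.0552) and that from E13.5 to P0 was 0.89 (SE 0.58, edgeR adjusted p = 0.204). Neither was called. The first was called by DESeq2 (adjusted p = 0.0160), with upper-quartile scaling (adjusted p = 0.0477), with a filter at a mean of 1 CPM (adjusted p = 0.0476) and without E13.5 replicate 1 (adjusted p = 0.0238) or replicate 3 (adjusted p = 0.0203), with adjusted p up to 0.192 among the alternatives. Without E13.5 replicate 3 the change from E13.5 to P0 was 1.91 (adjusted p = 0.00927), so that call turned on 1 library, the one with the most globin RNA.

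Hbb-bt, the other adult beta copy, measured 56.5, 140 and 334 CPM in the E13.5 libraries, 78.4, 91.3 and 197 CPM in those of E14.5 and 172, 409 and 215 CPM in those of E15.5. It was at 370, 144 and 253 CPM at E16.5 and at 108, 203 and 152 CPM at P0. All neighbouring stages in the order of its levels overlapped, and its change from E13.5 to P0 was -0.20 (SE 0.58, edgeR adjusted p = 0.790). The interval of 2 SE around that change ran from -1.36 to 0.97, which leaves room for changes of either sign.

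Of the adult alpha copies, Hba-a1 measured 178, 359 and 670 CPM in the E13.5 libraries, 145, 162 and 275 CPM in those of E14.5 and 295, 537 and 282 CPM in those of E15.5, followed by 574, 232 and 348 CPM (E16.5) and 232, 323 and 310 CPM (P0). Hba-a2 was at 85.6, 144 and 370 CPM at E13.5 and at 77.8, 70.1 and 131 CPM at E14.5, and its later stage means were 209 ± 102 CPM at E15.5, 223 ± 102 CPM at E16.5 and 165 ± 20.3 CPM at P0 (SD, n = 3). Both were lowest at E14.5, and both lay wholly higher at E15.5 than at E14.5. Neither step was called: the changes were 0.94 for Hba-a1 (edgeR adjusted p = 0.147) and 1.17 for Hba-a2 (edgeR adjusted p = 0.106). In this comparison the libraries did not overlap for 6 of 7 members, 3 lower and 3 higher, as for 51.3% of all tested genes.

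The amount of globin RNA varied within stages. The 7 genes together took 0.153%, 0.298% and 0.592% of all counts in the E13.5 libraries and between 0.0841% and 0.269% in the 12 later ones, with no difference between stages detected (exact permutation test over all 1401400 divisions of the 15 libraries into 5 groups of 3, p = 0.113, also after Benjamini-Hochberg adjustment over the 7 ratios of this kind). Without E13.5 replicate 1, the library with the least globin RNA of that stage, the adjusted p was 0.0392. Ratios among globin genes within a library do not use its other RNA as the denominator, and the members were next compared by such ratios, tested on log2 odds with 0.5 counts added. The smallest p the test can give is 7.14e-07, and 3 libraries against 3 could not go below 0.1, so pairs of stages were not tested singly.

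The switch was seen in both classes at once. Hba-x made up 32.5%, 28.5% and 23.3% of alpha-like counts at E13.5 and 16.9%, 18.9% and 15.9% at E14.5, and then 0.646%, 0.413% and 0.332% at E15.5. It made up 0.0356%, 0.120% and 0.0628% at E16.5, and at P0 0%, 0.0363% and 0%, where 3 counts would have been 0.0223% and 0.0272% in the libraries at 0. The share fell without overlap at each stage to E16.5. The exact permutation test of the 5 stages gave p = 1.43e-06 (adjusted p = 9.99e-06).

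Hbb-y and Hbb-bh1 together made up 86.2%, 82.1% and 75.8% of beta-like counts at E13.5 and 58.0%, 61.0% and 54.5% at E14.5. At E15.5 they made up 1.23%, 0.542% and 0.561%, at E16.5 0.111%, 0.436% and 0.0467%, and at P0 0.0740%, 0.0973% and 0.0546%. Each stage up to E16.5 lay wholly below the stage before, while E16.5 and P0 overlapped with each other. The exact permutation test gave p = 6.42e-06 (adjusted p = 2.25e-05). In log2 odds the step was -1.71 (SE 0.31) from E13.5 to E14.5, -7.56 (SE 0.40) from E14.5 to E15.5, -2.45 (SE 1.01) from E15.5 to E16.5 and -0.81 (SE 0.96) from E16.5 to P0. For Hba-x the same steps were -0.90 (SE 0.21), -5.53 (SE 0.30), -2.75 (SE 0.58) and -2.94 (SE 1.20). In both classes the longest step was that between E14.5 and E15.5.

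Within E13.5 the embryonic shares ran opposite to the amount of globin RNA. Replicate 1 had the least globin RNA and the highest embryonic shares of both classes, and replicate 3 the most globin RNA and the lowest shares. With 3 libraries this is a description and was not tested.

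**Figure D2:**
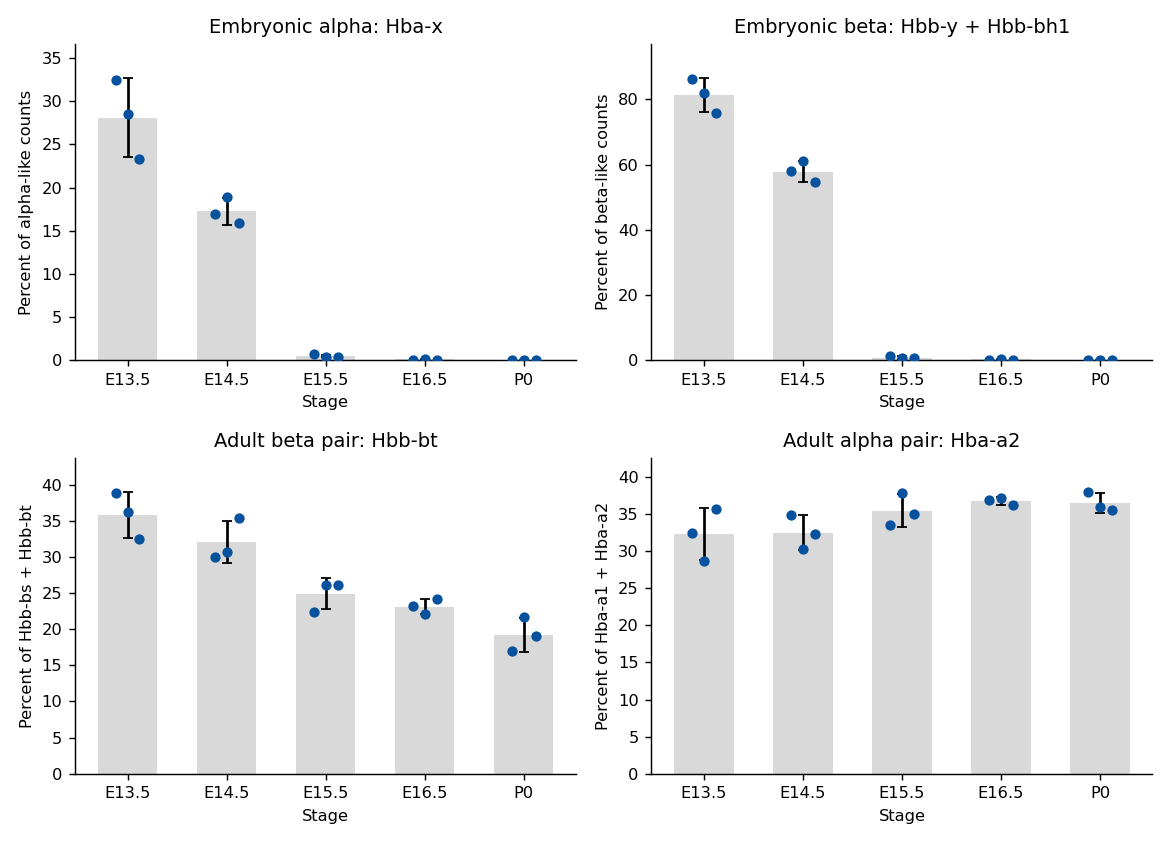
Percent (y) by stage (x) of Hba-x among alpha-like counts, of Hbb-y and Hbb-bh1 among beta-like counts, of Hbb-bt among the adult beta pair and of Hba-a2 among the adult alpha pair. Bars are stage means, error bars are SD over 3 libraries and points are libraries. The embryonic shares drop from 17.2% and 57.8% at E14.5 to under 1% at E15.5, the Hbb-bt share descends from 35.8% to 19.2%, and the Hba-a2 share stays between 32.2% and 36.7%.

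The size of the embryonic shares depended on the counting of the adult copies. Counted per unique window of 100 bases, which was added after the data were seen, Hba-x made up 9.47% ± 2.05 of alpha-like RNA at E13.5, against 28.1% ± 4.61 in counts (SD, n = 3), and 5.23% ± 0.62 at E14.5. The embryonic beta-like share was 64.5% ± 8.12 at E13.5, against 81.4% ± 5.26 in counts, and 35.9% ± 2.87 at E14.5, against 57.8% ± 3.22. With windows of 50 or 200 bases the E13.5 shares were 6.10% or 12.2% for Hba-x and 62.5% or 69.1% for the beta-like genes. The fall over the stages passed the exact permutation test on each of these scales (adjusted p at most 1.71e-05). At E14.5 the embryonic genes were thus the majority of beta-like counts but the minority per unique window. Their share was 33.8%, 35.9% and 40.8% with windows of 50, 100 and 200 bases. The share itself cannot be settled without the fragment lengths.

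Within the adult beta pair the share of Hbb-bt declined. It was 38.9%, 36.2% and 32.5% of Hbb-bs and Hbb-bt at E13.5, 30.0%, 30.7% and 35.4% at E14.5 and 22.4%, 26.1% and 26.2% at E15.5, then 23.2%, 22.1% and 24.1% at E16.5 and 16.9%, 21.6% and 19.05% at P0. Every library from E15.5 on lay below every earlier one, and every P0 library lay below every E16.5 library (exact permutation test p = 3.78e-05, adjusted p = 8.82e-05). At a given fragment length the part of fragments lost to multi-mapping is the same at every stage, and per unique window the share went from 28.8% ± 2.85 at E13.5 to 14.7% ± 1.91 at P0. Whether the fragment length differed between stages was not tested.

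Within the adult alpha pair no change was detected. Hba-a2 made up 32.2% ± 3.49 of Hba-a1 and Hba-a2 at E13.5, 32.5% ± 2.31 in the next stage, 35.4% ± 2.202 at E15.5, 36.7% ± 0.50 at E16.5 and 36.5% ± 1.34 in the newborns (SD, n = 3; exact permutation test p = 0.0755, adjusted p = 0.0881). Without E13.5 replicate 3 the adjusted p was 0.0331. Which alpha copy was the more abundant could not be read from the counts: per unique window of 50 bases Hba-a2 made up 60.2% ± 3.85 at E13.5 and with windows of 200 bases 49.2% ± 4.01.

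Within the embryonic beta pair Hbb-y was nearly all of the counts throughout. It made up 97.6%, 98.1% and 98.4% of Hbb-y and Hbb-bh1 at E13.5, 98.2%, 98.9% and 98.6% at E14.5 and 96.1%, 95.1% and 94.4% at E15.5, where every library lay below the earlier ones. At E16.5 and P0 the shares, 80.0% to 100%, rested on few counts, with 10 to 98 of Hbb-y a library. The stages differed by the exact permutation test (p = 0.0126, adjusted p = 0.0177), but without E14.5 replicate 2 the adjusted p was 0.0533, and the difference between P0 and E13.5, 0.00259 percentage points, turned to -0.978 without P0 replicate 2 or replicate 3 and to -0.214 without E13.5 replicate 1.

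The ratio of all alpha-like to all beta-like counts rose over the stages as counted, but not on every scale. From the first to the last stage its log2 was -1.56 ± 0.12, -1.32 ± 0.10, -0.86 ± 0.06, -0.86 ± 0.07 and -0.80 ± 0.09 (SD, n = 3; exact permutation test p = 1.47e-04, adjusted p = 2.57e-04). Per unique window of 100 bases it was -0.72 ± 0.14 at E13.5 and the P0 libraries exceeded E13.5 by 0.14 (adjusted p = 0.461), and with windows of 50 bases by 0.14 (adjusted p = 0.525). With windows of 200 bases the difference was 0.29 (adjusted p = 0.0395), against 0.76 as counted. On the scales of 50 and 100 bases no change was thus detected, while on that of 200 bases a smaller rise passed the threshold. The share of embryonic genes, whose windows are all unique, fell over the same stages. Its part in the rise as counted was not tested.

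**Figure D3:**
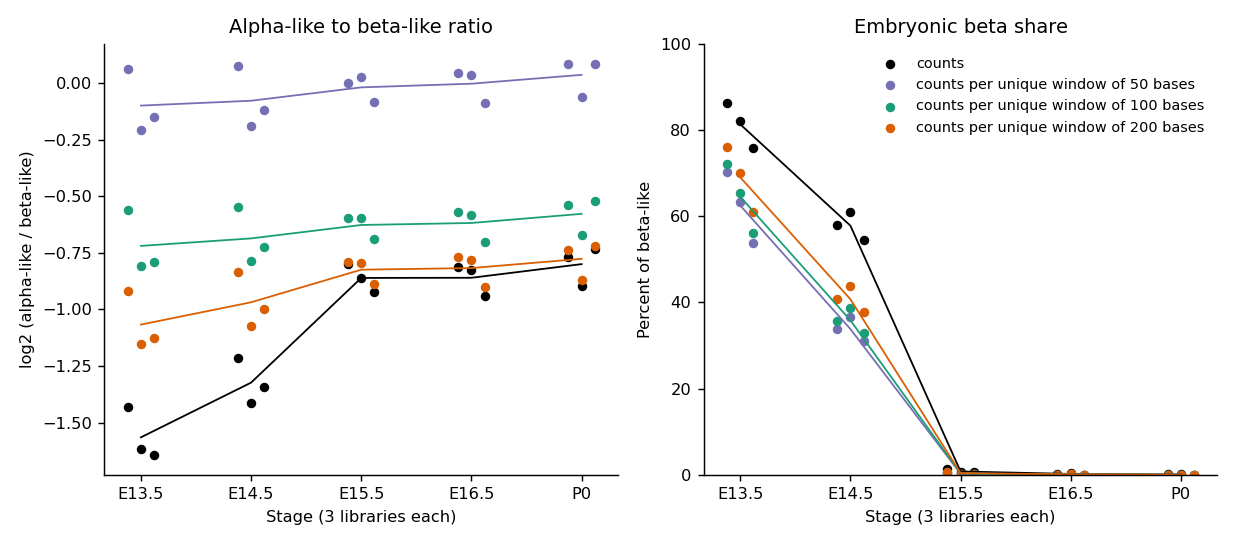
Left, log2 ratio of alpha-like to beta-like globin (y) and right, percent of Hbb-y and Hbb-bh1 in beta-like globin (y), by stage (x), from raw counts (black) and from counts per unique window of 50 (purple), 100 (green) and 200 (orange) bases. Points are libraries and lines join stage means. The ratio from counts climbs from -1.56 to -0.80 while the 50-base and 100-base lines are nearly level, and the embryonic share collapses at E15.5 on all 4 scales.

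Of the minor globin genes Hbb-bh0 fell with the embryonic members. Hbb-bh0, a beta-like pseudogene of the cluster, had 63, 105 and 248 counts at E13.5, 25, 49 and 71 at E14.5, 1, 1 and 0 at E15.5 and none later. With 416 counts at E13.5 and 0 at P0, the exact 95% counting interval of the ratio in CPM began at 49.5. Of the 12 other globin-family and locus genes listed, 7 could be tested, and 3 were called higher and 1 lower (Hbb-bh0) at P0 than at E13.5, where 29.8% of all genes were called higher and 26.8% lower. Hbq1b, an alpha-like theta gene, changed by -0.81 and was not called (edgeR adjusted p = 0.184). The 3 higher genes were globins of other tissues: Mb (myoglobin of muscle) rose from 1.62 ± 0.80 to 58.2 ± 38.9 CPM, Cygb (cytoglobin of fibroblasts) from 13.6 ± 1.07 to 36.8 ± 5.92 CPM and Ngb (neuroglobin) from 0.305 ± 0.144 to 0.748 ± 0.241 CPM.

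Several genes of the red-cell membrane and skeleton were lower at P0 than at E13.5. Of 15 tested, 6 were called lower and 3 higher at P0 than at E13.5 (26.8% and 29.8% of all genes), with a median change of -1.0 against 0.03 over all genes. The 9 calls among 15 are near the share of all genes in either direction, 56.6%, so the count of calls does not set this list apart. The 6 lower genes were Epb42, Kel, Slc4a1, Rhag, Ermap and Epb41. Slc4a1, the anion exchanger band 3, was at 19.2, 31.0 and 48.6 CPM at E13.5, at 5.16, 6.81 and 9.56 CPM at E14.5, at 4.94, 7.48 and 4.70 CPM at E15.5 and at 3.44, 4.73 and 3.09 CPM at P0. It changed by -3.13 from E13.5 to P0 (SE 0.41, edgeR adjusted p = 5.55e-05). Its 3 E13.5 libraries stood in the order of their globin RNA, a description that was not tested. Epb42 (protein 4.2 of the membrane skeleton) fell from 3.01 ± 1.17 to 0.208 ± 0.190 CPM, and Kel (the Kell antigen) from 3.77 ± 1.80 to 0.284 ± 0.072 CPM. The 3 higher genes were Tmod1, Ank1 and Sptb, whose products also occur in muscle, and Tmod1 (tropomodulin, which caps actin filaments) rose from 5.71 ± 2.91 to 132 ± 75.8 CPM. The step from E14.5 to E15.5 was the longest of the embryonic globins. Of the 15 membrane genes 2 were called lower at that step and 1 higher (13.4% and 12.7% of all genes). They were Epb41 (-0.86, edgeR adjusted p = 0.0139), Add2 (-1.595, adjusted p = 0.0317) and Tmod1 (1.99, adjusted p = 0.0228). The step was not called for Slc4a1 (-0.33, edgeR adjusted p = 0.539), Epb42 (-0.73, adjusted p = 0.238) or Kel (-0.49, adjusted p = 0.521). From E13.5 to E14.5 Slc4a1, Epb42 and Kel changed by -2.20, -2.30 and -2.87. These changes were not called either (edgeR adjusted p from 0.0668 to 0.0790), in a comparison with 2 calls among all genes.

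Few enzymes of haem synthesis changed. Of 8 enzymes 1 was called higher and 1 lower at P0 than at E13.5, with a median change of 0.03 (29.8% of all genes were called higher and 26.8% lower). The higher was Fech, which inserts the iron of haem (0.54, edgeR adjusted p = 0.0415). The lower was Ppox (-0.53, edgeR adjusted p = 0.0200). Without E13.5 replicate 1 or without P0 replicate 2 no enzyme of the list was called. Alas2, the enzyme of the first step of haem synthesis in red cells, was at mean levels of 30.8, 14.4, 33.5, 33.1 and 28.4 CPM from E13.5 to P0, with its lowest mean at E14.5 as for the adult globin genes. Its change from E13.5 to P0 was -0.12 (edgeR adjusted p = 0.848).

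**Figure D4:**
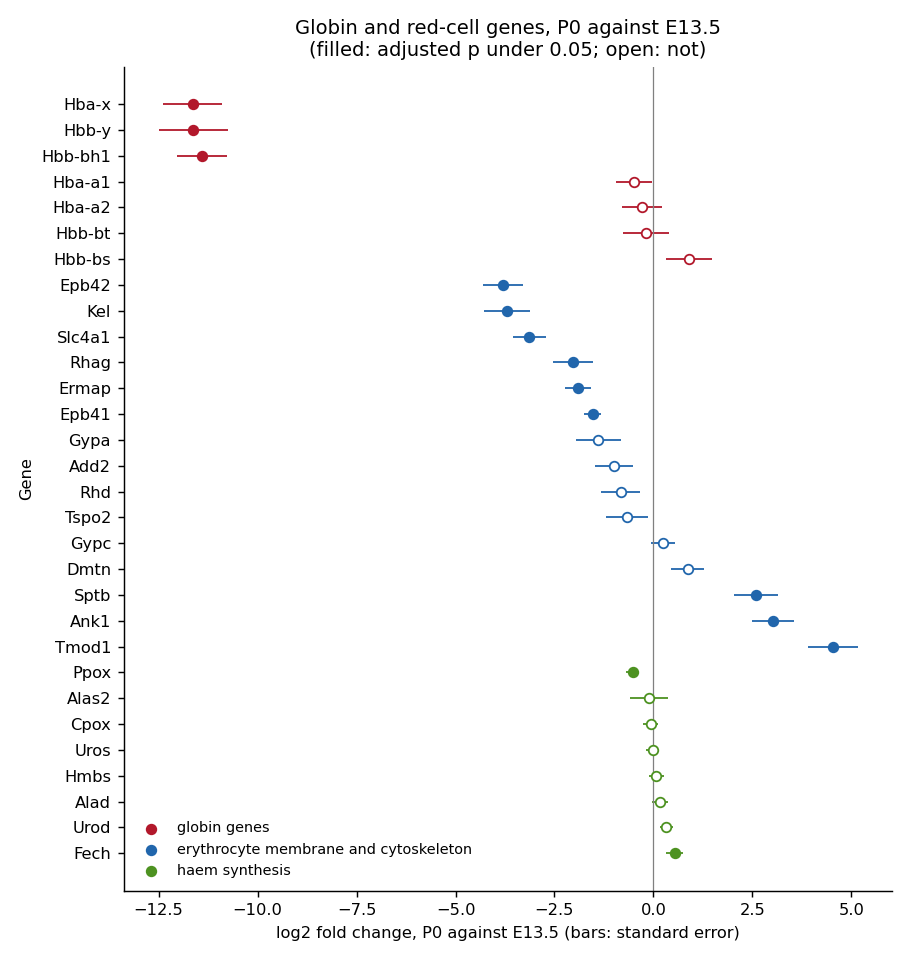
log2 fold change of P0 against E13.5 (x) with its SE (bars) for each gene (y): the 7 globin genes (red), 15 red-cell membrane and skeleton genes (blue) and 8 haem synthesis enzymes (green). Filled points have an edgeR adjusted p under 0.05. Hba-x, Hbb-y and Hbb-bh1 lie between -11.64 and -11.40, Epb42, Kel and Slc4a1 between -3.80 and -3.13, and the haem enzymes between -0.53 and 0.54.

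Of 13 transcription factors of the red-cell lineage 5 were called lower and 2 higher at P0 than at E13.5, with a median change of -0.76. The 7 calls among 13 are near the share of all genes, 56.6% in either direction (26.8% lower and 29.8% higher), so the count does not set this list apart. Bcl11a, known as a repressor of embryonic globin genes in definitive red cells, fell from 97.8 ± 31.5 CPM at E13.5 to 20.8 ± 16.2 CPM at P0 (edgeR adjusted p = 0.00840), and Tal1, a master regulator of blood formation, from 23.3 ± 9.67 to 4.59 ± 1.36 CPM (edgeR adjusted p = 1.97e-04). Myb, a factor of blood progenitors that is also active in other dividing tissues, rose from 8.21 ± 2.73 to 18.4 ± 8.55 CPM (edgeR adjusted p = 0.0185). Gfi1b fell from 0.489 ± 0.194 to 0.0688 ± 0.0356 CPM (edgeR adjusted p = 0.00838), with 1, 3 and 2 counts in the P0 libraries, at or under the detection floor. Bcl11a and Tal1 are expressed in neurons and other cells too. Their E13.5 libraries did not stand in the order of globin RNA: Tal1 was at 19.2, 34.4 and 16.4 CPM there. With 3 libraries this order is a description and was not tested, and the cells behind the fall were not identified. The level of Bcl11a within red cells cannot be read from bulk tissue.

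Of 15 tested genes for iron uptake, haemoglobin handling and red-cell enzymes 4 were called higher and 4 lower at P0, with a median change of -0.17, and 5 in all without E13.5 replicate 2. Among all genes 29.8% were called higher and 26.8% lower, about the same share, so this count does not set the list apart either. The higher genes included Fech, which is also in the haem synthesis list and was counted there too. Steap3, a ferrireductase of the iron uptake route, rose from 5.01 ± 2.14 to 25.5 ± 10.8 CPM and Car1, a carbonic anhydrase of mature red cells, from 0.0819 ± 0.0100 to 0.438 ± 0.102 CPM. Trim58, a ubiquitin ligase of late red-cell maturation, fell from 0.343 ± 0.082 to 0.0722 ± 0.0521 CPM and Xpo7, a nuclear exporter, from 136 ± 0.77 to 55.6 ± 6.91 CPM. Trim58 held 2, 1 and 3 counts in the P0 libraries, at or under the detection floor, and Car1 held 6, 5 and 6 counts in those of E13.5.

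Markers of other cells moved in the same interval. Between E13.5 and P0 the summed level of 10 macrophage genes went from 162 to 222 CPM up to 411 to 550 CPM (9 called higher, 1 lower; 29.8% and 26.8% of all genes were), that of 10 neutrophil genes from 7.30 to 13.4 CPM up to 106 to 277 CPM (6 of 9 tested called higher) and that of 10 endothelial genes from 402 to 535 CPM up to 608 to 849 CPM (6 higher, 1 lower). Most of the neutrophil sum at P0 was Ltf (lactoferrin, also made by glands), at 0.654 ± 0.321 CPM at E13.5 and 152 ± 84.4 CPM at P0, while Mpo and Prtn3 changed by -0.86 and -0.79 and were not called (edgeR adjusted p = 0.126 and 0.0678). The summed level of 10 megakaryocyte and platelet genes went from 27.1 to 37.2 CPM up to 106 to 145 CPM (2 higher, 3 lower of 9 tested), but the median change of its genes was -0.03. The sum was led by the 2 higher genes, Itgb3 (an integrin also found on other cells), from 12.4 ± 2.12 to 83.6 ± 23.5 CPM, and Pf4, from 5.30 ± 1.35 to 23.2 ± 2.32 CPM. The 3 lower genes were subunits of platelet receptors: Gp1ba went from 0.778 ± 0.146 to 0.0533 ± 0.0089 CPM, Gp9 from 1.07 ± 0.21 to 0.300 ± 0.117 CPM and Gp6 from 0.376 ± 0.181 CPM to 0 counts. The P0 level of Gp1ba was under the detection floor of those libraries, 0.0727 to 0.140 CPM. The tissue label was met by 8 palate mesenchyme genes, at 574 to 932 CPM in sum at E13.5 and 238 to 346 CPM at P0 (5 called lower), and by 8 oral epithelium genes at 300 to 666 CPM and 825 to 3064 CPM (5 called higher, 3 without E13.5 replicate 1, E13.5 replicate 2 or P0 replicate 3). The part of these changes in the globin results was not tested.

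Genes with a pattern most like the embryonic and adult beta-like genes were named by correlation of log2 CPM over the 15 libraries, among 16512 genes with a mean of at least 1 CPM. With summed Hbb-y and Hbb-bh1 the highest Pearson correlations were those of Hsd3b6 (0.979), Vcam1 (0.970), 2610316D01Rik (0.968), Pbx2 (0.965) and Dennd2a (0.965). Hsd3b6, a steroid dehydrogenase, had mean levels of 12.7, 3.36, 0.167, 0.0523 and 0 CPM from E13.5 to P0, and Vcam1, an adhesion molecule, of 76.1, 66.8, 34.7, 26.2 and 23.7 CPM. With summed Hbb-bs and Hbb-bt they were those of Gm21399 (0.894), Alas2 (0.881), Gabrp (0.862), Mrc1 (0.852) and Blvrb (0.840). Alas2 and Blvrb, a biliverdin reductase, are known red-cell genes. The libraries share stages and differ in globin RNA content, so these values describe likeness across 5 stages and nothing more.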

How the data were processed

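Per the labels' protocols, palates of 3 embryos were pooled per library and RNA was taken with a column kit. The submitters' processing notes name cutadapt 3.4, FastQC 0.11.9, HISAT2 2.2.1, Bowtie2, SAMtools 1.12 and mm10, without their roles. Per the file headers, the deposited values are raw fragment counts per gene made by the authors with featureCounts 2.0.1 on GENCODE M18, counting pairs on the reverse strand, with no option for multi-mapping or overlapping fragments or for dropping duplicates. Read and fragment lengths are not given in the sources used here.

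Symbols came from GENCODE M21 for 54079 of the 54232 genes. Counts were filtered with filterByExpr (minimum count 10), scaled by TMM and fitted with 1 coefficient per stage in edgeR 4.0.16 (R 4.3.3); the common biological coefficient of variation was 0.332. Shares and ratios were tested by exact permutation over libraries, two-sided in effect since an F statistic was used. Uniqueness was computed from M21 transcripts. The procedure was tested on simulated data for P0 against E13.5. Of genes changed 2-fold 28.4% of 67 were called, of those changed 4-fold 77.6% of 67 and of those changed 8-fold 90.9% of 66. Of 21497 unchanged genes 0.0419% were called. Most changes of 2-fold were thus missed, which limits the reading of genes not called.

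The named genes are all 7 members, from each list up to 4 genes with the largest change of P0 against E13.5, and the 5 most alike for each pattern; Alas2, Hbq1b, Mpo, Prtn3 and the remaining genes named by a count were chosen after their values were seen. The members and lists were chosen with earlier results of these data known. Alternatives were DESeq2 1.42.0, its size factors, upper-quartile scaling, no filter, a mean of 1 CPM, scaling without globins, counts per exon length, a replicate block, leaving out each library and, added later, counts per unique window. 1 gene of the membrane list is not reported here and was left out of its counts.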

Additional observations from a re-analysis of the deposited data

How the results depend on the processing

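The 3 embryonic genes remained called and lower in each comparison except E14.5 against E13.5 under all alternatives run, with log2 fold changes of P0 against E13.5 from -16.55 to -10.92 for Hba-x, -12.07 to -11.09 for Hbb-y and -13.94 to -10.85 for Hbb-bh1. E14.5 against E13.5 depended on the tool: edgeR called 2 genes and DESeq2 1000, with 3 globin members; no filter gave 6 genes and 1 member, a mean of 1 CPM 1 gene, and leaving out a library 0 to 28 genes and 0 to 1 members. Replicate numbers did not pair the libraries throughout, but pairing of some was not excluded. The deviations of 30 same-numbered pairs correlated at -0.30 to 0.55 (median -0.002) and those of 60 differently numbered pairs at -0.50 to 0.43 (median -0.022). Of 15 libraries 7 correlated best with their own number. With the replicate block 135 genes and 1 member, Hbb-bh1, were called in E14.5 against E13.5. Leaving out a library gave 2561 to 5495 genes in E15.5 against E13.5 (5078 with all; 2821 without E13.5 replicate 1, 2561 without E13.5 replicate 2, 2900 and 3075 without replicate 2 and 3 of E15.5) and 2320 to 6035 in E15.5 against E14.5 (5773 with all; 2320 or 3259 without replicate 1 or 2 of E14.5, and 2975 or 3010 without replicate 2 or 3 of E15.5). Upper-quartile scaling moved the median of all genes in E15.5 against E14.5 from 0.03 to 0.16 and the calls from 2803 higher and 2970 lower to 3424 and 2007; no filter moved E15.5 against E13.5 from 3045 and 2033 to 2857 and 1014. The unadjusted directions of the adult genes against E13.5 were not stable, Hba-a1 at E15.5 ranging from -0.48 to 0.46.

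Among the ratios, leaving out a library moved the P0 minus E13.5 difference over -30.5 to -25.9 percentage points for Hba-x, -84.1 to -78.9 for the embryonic beta-like share, -18.3 to -15.1 for Hbb-bt, 2.43 to 5.92 for Hba-a2 (5.92 without E13.5 replicate 3, adjusted exact p = 0.0331), -0.978 to 1.96 for Hbb-y within its pair (-0.214 without E13.5 replicate 1), 0.73 to 0.83 for the log2 alpha-like to beta-like ratio and -0.327 to -0.108 for the globin percentage (-0.327 without E13.5 replicate 1). Per unique window of 50 or 100 bases that log2 ratio was no longer past the threshold, at 0.136 and 0.142. Depth limits the embryonic genes at E16.5 and P0, where a library held at most 98 counts of any of them, and the loss of multi-mapping fragments limits every level set between an adult gene and another gene.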
